A study of Homo sapiens with 7 samples.

Results

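SRF (serum response factor), its cofactors and the genes of the actin cytoskeleton were examined in Huh-7, a human hepatocellular carcinoma cell line, upon depletion of the mRNA-binding protein IGF2BP1. The group was set by gene symbol and holds 48 of the 58174 genes in the deposited table. It comprises SRF, the ternary complex factors ELK1, ELK3 and ELK4, the myocardin-related factors MKL1 and MKL2, and 42 genes that encode actins and proteins that bind, bundle, move or anchor actin filaments. Cells received either a control siRNA (siC, 3 libraries) or an siRNA pool targeting IGF2BP1 (siIGF2BP1, 4 libraries), and total RNA was collected 72 h after transfection. All 7 libraries come from the same cell line, 1 siRNA pool and 1 control, and the labels do not say whether replicates are separate cultures, so p-values measure the spread between these libraries, which may be technical. Abundance is given as FPKM, the fragments of a gene scaled to the gene length listed in the deposited table and to the size of the library. For some genes, such as TPM1, reads and FPKM imply a listed length far above that of the canonical transcript. Levels of different genes and the sizes of shares within families are therefore only roughly comparable. Comparisons of the same gene between libraries do not depend on this length.

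SRF is a DNA-binding protein that recognizes the CArG box, a short AT-rich motif flanked by C and G pairs. It acts with either of 2 families of cofactors. The ternary complex factors, of the ETS family, link SRF to growth factor signalling, and the MKL proteins bind monomeric actin in the cytoplasm and enter the nucleus when monomers are used up by filament assembly. Many genes of the actin cytoskeleton carry CArG boxes, and SRF itself is known to be among the genes it regulates.

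CArG boxes were therefore looked for in the promoters of the group, in RefSeq windows (GRCh38.p14) of 300 bases from 250 before to 50 after each listed start site. The box was searched by its strict form, 10 bases that read as the same pattern on either strand. At least 1 listed promoter was found for 44 of the 48 genes, MKL1 and MKL2 under their current symbols, and not for ACTB, TAGLN, MYL9 and VIL1. A box was found for 9 of the 44 genes (20.5%), against 438 of all 27305 genes with a listed promoter (1.60%). Since the genes were chosen as SRF-related, this share is a description of the choice. The genes were SRF, ACTG1, ACTN1, FLNA, CNN2, SVIL, TPM4, FHL1 and FHL2. The boxes of SRF and of the genes whose values are followed below are shown here with 10 flanking bases on either side, 5′ to 3′ in the direction of the gene, with the box in capitals.
SRF, first base 30 before the start site, chr6:43171229-43171258, plus strand: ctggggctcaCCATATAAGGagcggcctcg
SRF, first base 10 before the start site, chr6:43171249-43171278, plus strand: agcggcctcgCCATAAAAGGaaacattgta
TPM4, 173 before the start site, chr19:16067355-16067384, plus strand: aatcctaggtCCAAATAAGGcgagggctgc
SVIL, 33 before the start site, chr10:29634985-29635014, minus strand: cgagttcaggCCATAAAAGGcccgtcccat
FLNA, 94 before the start site, chrX:154374709-154374738, minus strand: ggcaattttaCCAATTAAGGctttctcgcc
ACTG1, 94 before the start site, chr17:81512874-81512903, minus strand: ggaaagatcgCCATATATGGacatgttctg
FHL2, 101 before a first start site, chr2:105438595-105438624, minus strand: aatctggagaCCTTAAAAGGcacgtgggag
FHL2, 59 before another start site, chr2:105399091-105399120, minus strand: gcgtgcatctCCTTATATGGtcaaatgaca
Each distance is to the start site whose window held the box. SRF carried a pair of boxes close to 1 of its 2 listed start sites. SVIL has 4 listed promoters and TPM4 has 3, and for each gene only 1 held a box. For the boxes of SVIL, TPM4 and ACTG1 and the second of FHL2, that start site lies inside the annotated gene, away from its 5′ end. In GENCODE release 44 the genes run from 29457338 to 29736959 (SVIL), 16067021 to 16103002 (TPM4), 81509413 to 81523847 (ACTG1) and 105357712 to 105438513 (FHL2). A match in these letters is not evidence that SRF binds there, and a promoter without a match may hold a box outside the window or a looser form of it.

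The libraries held from 12826550 to 33212205 reads on genes. IGF2BP1, the target of the siRNA pool, averaged 82.2 ± 2.03 FPKM over siC (SD, n = 3), and siIGF2BP1 retained 19.2% of this, at 15.8 ± 0.583 FPKM (SD, n = 4). The 10 markers of hepatocytes and Huh-7 cells that were examined were all tested, AFP and ALB among them, and their summed level ran from 6110 to 7590 FPKM in siC and from 6730 to 6900 FPKM in siIGF2BP1. Of 10 markers of smooth muscle and fibroblasts, cells in which SRF drives contractile genes, 9 had a mean below 1 FPKM and DES and MYOCD were listed at 0 in each library. Their summed level was from 1.56 to 2.25 FPKM in siC and from 2.43 to 2.69 FPKM in siIGF2BP1. Of 10 markers of endothelial and blood cells, 8 had a mean below 1 FPKM, and HBB was listed at 0. The sum ran from 3.08 to 4.38 FPKM in siC and from 5.07 to 6.04 FPKM in siIGF2BP1. The 2 others were PECAM1 and CD14. PECAM1 averaged 2.81 ± 0.235 FPKM in siC (SD, n = 3) against 3.01 ± 0.189 FPKM (SD, n = 4), and its groups overlapped. CD14 averaged 0.892 ± 0.396 FPKM in siC (SD, n = 3) against 2.25 ± 0.283 FPKM (SD, n = 4), without overlap (limma adjusted p = 0.0338). The part of these sums in the results was not tested. siC replicate 3 stood apart from siC replicates 1 and 2, and its values are given with each result that rests on it.

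Upon IGF2BP1 depletion, 4 genes of the group were lower and 0 were higher (limma on log2(FPKM + 0.1), adjusted p of at most 0.01 over all genes tested). The 4 genes were SRF, the calponin-related genes TAGLN and TAGLN2, and the tropomyosin gene TPM1. The test covered the 43 of 48 genes whose mean over all libraries reached 1 FPKM. The 4 are 9.3% of these, against 2.28% of the 14839 genes tested in all called lower, 1.65% called higher and 3.93% called in either direction. Before adjustment (p under 0.05) 15 of the 43 were lower, or 34.9%, and 0 higher, against 14.8% and 11% of all genes tested, and voom on reads recovered from the FPKM values called 7 lower and 0 higher, against 3.3% and 2.38% of all genes. The 7 were SRF, TAGLN, TAGLN2, TPM1, TPM4, MYL9 and SVIL. The siIGF2BP1 values lay below all siC values for 14 of the 43 genes (32.6%, against 15.1% of all genes tested) and above them for 0 (against 11.9%). The mean was lower for 32 of 43 (74.4%, against 52.9%), and the median log2 change was -0.18, beside -0.017 over all genes tested. The 48 genes were chosen with earlier results of these data known. These shares therefore describe the group and are no test of it. Of the 9 genes with a CArG box in a listed promoter, SRF was lower, TPM4, SVIL, FLNA and FHL2 had lower values without overlap and did not pass or were not tested, ACTG1, ACTN1 and CNN2 overlapped, and FHL1 had hardly any reads. The listed promoters of TAGLN2 and TPM1 held no such letters. In bulk RNA, a change in all cells and a change in a part of the cells cannot be told apart.

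**Figure D1:**
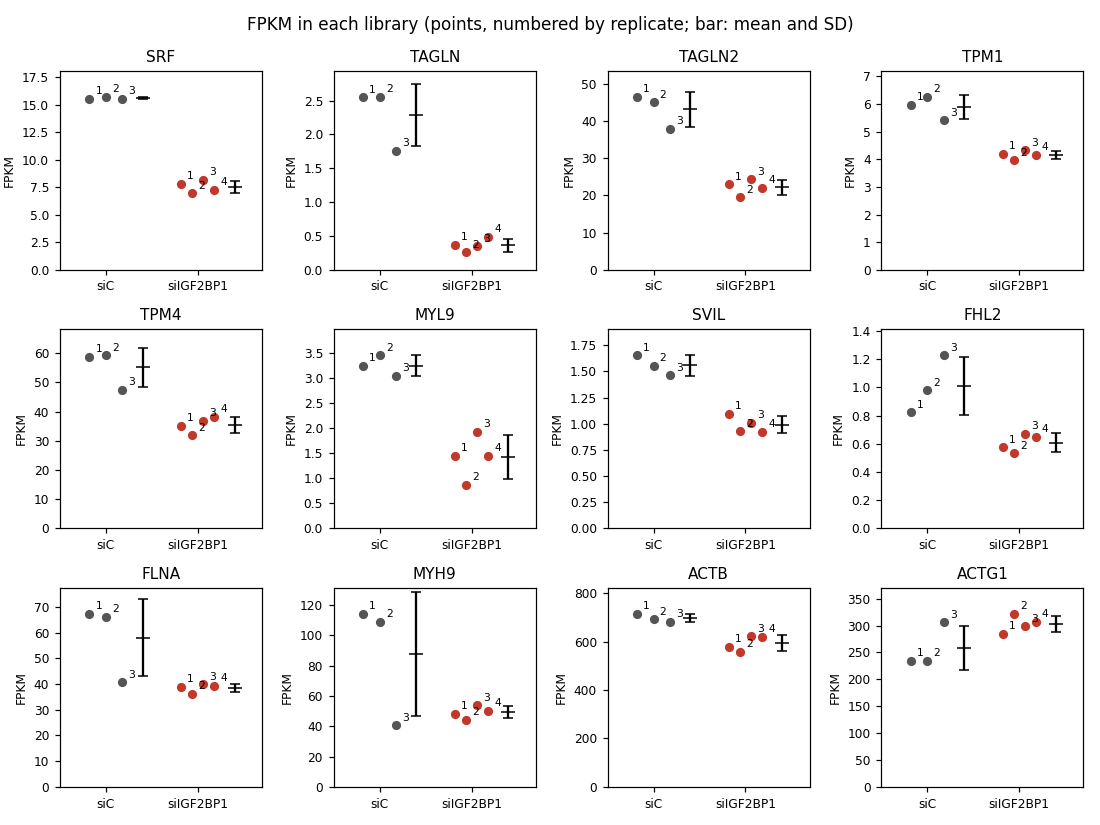
FPKM (y axis, from 0) of 12 genes in each of the 3 siC (grey) and 4 siIGF2BP1 (red) libraries, with points numbered by replicate and a black bar for the mean and SD (n = 3 and 4). The values of SRF, TAGLN, TAGLN2, TPM1, TPM4, MYL9, SVIL, FHL2, FLNA and ACTB do not overlap between the groups, whereas siC replicate 3 lies at 40.6 FPKM for MYH9, below each siIGF2BP1 library, and at 306 FPKM for ACTG1, within the range of the siIGF2BP1 libraries.

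SRF (ENSG00000112658, GRCh38 chromosome 6, 43171269 to 43181506, plus strand in GENCODE release 44) was at 15.5, 15.7 and 15.5 FPKM in siC replicates 1 to 3. In siIGF2BP1 replicates 1 to 4 it was at 7.80, 6.95, 8.19 and 7.24 FPKM. The siC values lay within a narrow band, and all siIGF2BP1 values lay far below it. SRF fell to 48.4% of siC (log2 change -1.04, 95% interval from -1.21 to -0.87, limma adjusted p = 0.000536). For SRF, siC replicate 3 stood at 99.4% of the mean of siC replicates 1 and 2. SRF passed the threshold in each of the 7 fits that left out 1 library.

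The ternary complex factor genes did not pass. ELK3 was at 3.11, 3.22 and 4.17 FPKM in siC and at 2.49, 2.33, 2.57 and 3.07 FPKM in siIGF2BP1, and its groups did not overlap (log2 change -0.40, interval from -0.73 to -0.074, limma adjusted p = 0.120). ELK4 was at 3.75, 3.78 and 7.32 FPKM in siC and at 3.43, 4.46, 2.97 and 3.05 FPKM in siIGF2BP1. ELK4 thus had 1 high value, that of siC replicate 3, and the next highest was that of siIGF2BP1 replicate 2, so its groups overlapped (log2 change -0.44, interval from -1.06 to 0.17, and -0.13 without siC replicate 3). ELK1 was at 7.32, 6.42 and 6.78 FPKM in siC and at 7.41, 6.18, 7.33 and 7.66 FPKM in siIGF2BP1, a log2 change of 0.059 (interval from -0.16 to 0.28). As a share of the summed FPKM of the 3 ternary complex factor genes, ELK1 made up from 37.1% to 51.6% in siC and from 47.7% to 57.0% in siIGF2BP1.

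The MKL genes, which encode the actin-sensing cofactors, did not pass either. MKL1 (now MRTFA) was at 3.65, 3.61 and 2.93 FPKM in siC and at 2.56, 2.75, 3.27 and 2.96 FPKM in siIGF2BP1 (log2 change -0.23, interval from -0.51 to 0.061). MKL2 (now MRTFB) was at 2.03, 2.40 and 3.60 FPKM in siC and at 2.49, 3.02, 2.04 and 2.05 FPKM in siIGF2BP1 (log2 change -0.13, interval from -0.66 to 0.40), and without siC replicate 3 its log2 change was 0.099. In siC replicate 3 MKL1 had its lowest siC value and MKL2 its highest. The intervals of ELK4 and MKL2 were the widest among the cofactors, and a change of moderate size in either direction was not detectable for MKL2.

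The 2 cytoplasmic actin genes went in opposite directions, and neither passed the threshold. ACTB, the gene of the group with the highest level, was at 715, 692 and 682 FPKM in siC and at 578, 557, 622 and 620 FPKM in siIGF2BP1. All siIGF2BP1 values of ACTB lay below all siC values (log2 change -0.23, interval from -0.42 to -0.041, limma adjusted p = 0.122), although with quantile normalization the log2 change was 0.22. ACTG1 was at 235, 234 and 306 FPKM in siC and at 284, 322, 298 and 307 FPKM in siIGF2BP1 (log2 change 0.24, interval from -0.027 to 0.51, limma adjusted p = 0.235). The siIGF2BP1 values of ACTG1 lay above siC replicates 1 and 2, and siC replicate 3 lay among them. ACTG1 passed the threshold without siC replicate 3 (log2 change 0.37).

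The ratio of the 2 actins within a library does not depend on the scaling of the library. ACTG1 made up 24.7%, 25.3% and 30.9% of the summed FPKM of ACTB and ACTG1 in siC. In siIGF2BP1 it made up 33.0%, 36.6%, 32.4% and 33.1%. The share of ACTG1 was higher in each siIGF2BP1 library than in any siC library, at 33.8 ± 1.92% (SD, n = 4) against 27.0 ± 3.45% (SD, n = 3). With 3 libraries against 4 the smallest p of a two-sided exact permutation test is 0.0571, so that no share given here could pass 0.05. Reads on the 10 pseudogenes named after ACTB made up from 0.137% to 0.238% of the reads on ACTB and these, and those on the 20 named after ACTG1 from 0.345% to 0.589%. ACTA2, the actin of smooth muscle, had at most 1 read in any library.

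Of the genes that cross-link or bundle filaments, including the calponin family, 11 of 12 were tested. At the threshold 2 were lower (18.2%, against 2.28% of all genes tested) and 0 higher (against 1.65%). For 5 the siIGF2BP1 values lay below all siC values (45.5%, against 15.1%). TAGLN (ENSG00000149591, chromosome 11, 117199370 to 117207464, plus strand), which encodes transgelin, an actin-binding protein of smooth muscle and a textbook SRF target, was at 2.55, 2.56 and 1.76 FPKM in siC. In siIGF2BP1 it was at 0.366, 0.259, 0.347 and 0.492 FPKM, from as few as 18 reads per library. TAGLN fell to 16.0% of siC (log2 change -2.36, SE 0.285, limma adjusted p = 0.00358), the largest change among the 43 genes. It passed without siC replicate 3 and without siIGF2BP1 replicate 4, and missed the threshold without siIGF2BP1 replicate 1, 2 or 3, with limma adjusted p from 0.0103 to 0.0156. Without siC replicate 1 or 2 its mean fell under the 1 FPKM minimum. The size of the change depends on the scale, with a log2 change of -1.26 at a pseudocount of 1 and of -2.91 with quantile normalization, under which TAGLN did not pass (limma adjusted p = 0.0261). Its exons share 2233 bases with PCSK7 on the other strand, which averaged 1.91 ± 0.265 FPKM in siC (SD, n = 3) against 1.95 ± 0.0953 FPKM (SD, n = 4).

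TAGLN2 (ENSG00000158710, chromosome 1, 159918107 to 159925507, minus strand), the relative of TAGLN outside muscle, was at 46.4, 45.0 and 37.8 FPKM in siC and at 22.9, 19.5, 24.3 and 22.1 FPKM in siIGF2BP1. TAGLN2 fell to 51.5% of siC (log2 change -0.95, SE 0.104, limma adjusted p = 0.00256), with at least 712 reads in each library. It passed without siC replicate 3 and without siIGF2BP1 replicate 2 or 3, and the 4 other libraries, left out in turn, gave limma adjusted p from 0.0138 to 0.0169. Together with the calponins CNN1 to CNN3 and TAGLN, TAGLN2 made up 22.8%, 21.6% and 20.1% of the summed FPKM in siC and 12.8%, 11.5%, 13.6% and 12.6% in siIGF2BP1. CNN3, the calponin with the highest level, was at 105, 112 and 118 FPKM in siC and at 113, 115, 109 and 109 FPKM in siIGF2BP1 (log2 change 0.0021, interval from -0.15 to 0.15). The data thus held falls of TAGLN and TAGLN2 beside a CNN3 whose interval leaves room for a change of at most 0.15 on the log2 scale. CNN1, the calponin of smooth muscle, had from 0 to 15 reads per library and was not tested.

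Among the other genes of this kind, SVIL (supervillin, which ties filaments to the membrane) was at 1.65, 1.56 and 1.46 FPKM in siC and at 1.09, 0.928, 1.01 and 0.923 FPKM in siIGF2BP1. The groups did not overlap (log2 change -0.61, limma adjusted p = 0.0510). FLNA (filamin A) was at 67.3, 66.2 and 40.7 FPKM in siC and at 38.8, 36.2, 39.8 and 39.3 FPKM in siIGF2BP1, so that siC replicate 3 was just above the highest siIGF2BP1 value (log2 change -0.56, limma adjusted p = 0.0948). FLNC had a log2 change of -0.36, and VIL1 (villin, a bundling protein of epithelial microvilli) of -0.53. The exons of VIL1 share 3045 bases with USP37 on the other strand, which averaged 11.8 ± 1.44 FPKM in siC (SD, n = 3) against 9.68 ± 0.520 FPKM (SD, n = 4). FLNA, FLNC, VIL1 and the actinin gene ACTN4 passed the threshold without siC replicate 3, with log2 changes of -0.79, -0.54, -0.81 and -0.46. Over all 7 libraries ACTN4 averaged 109 ± 36.2 FPKM in siC (SD, n = 3) against 94.7 ± 5.50 FPKM (SD, n = 4).

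**Figure D2:**
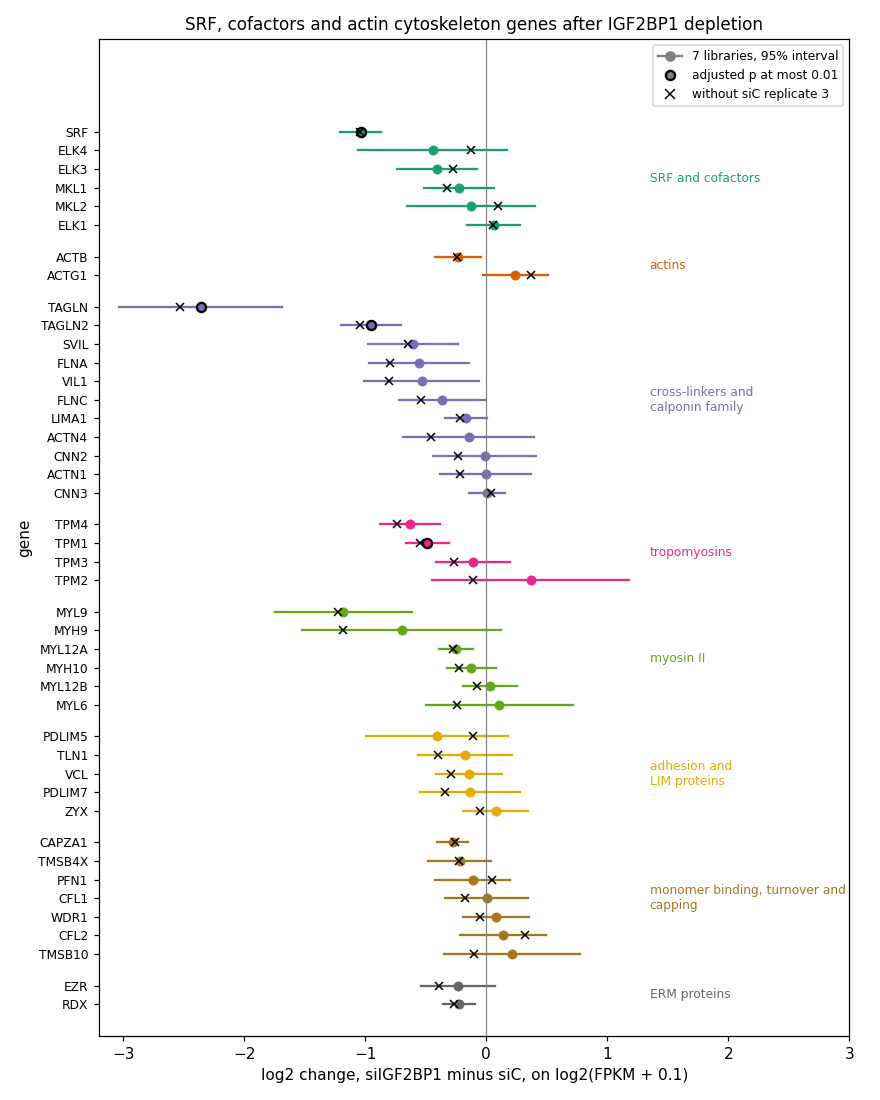
Log2 change (x axis, siIGF2BP1 minus siC on the log2(FPKM + 0.1) scale) of the 43 genes tested, grouped and coloured by role, with 95% intervals from limma; black rims mark the 4 genes past the threshold and crosses the fit without siC replicate 3. SRF, TAGLN, TAGLN2 and TPM1 lie left of 0, and crosses move left of their points for genes such as MYH9 (from -0.70 to -1.18) and TPM2 (from 0.37 to -0.11).

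The 4 tropomyosin genes, whose products lie along filaments and set which proteins can bind them, did not move together. TPM1 (ENSG00000140416, chromosome 15, 63042620 to 63071915, plus strand) was at 5.97, 6.27 and 5.41 FPKM in siC and at 4.20, 3.96, 4.32 and 4.16 FPKM in siIGF2BP1. TPM1 fell to 70.8% of siC (log2 change -0.49, SE 0.0753, limma adjusted p = 0.0088). It also passed without siC replicate 3, and missed without any of the other 6 libraries (limma adjusted p from 0.0304 to 0.0443), with no filter, with no trend and with either rescaling (0.0116 to 0.02). TPM4, with a CArG box in 1 of its 3 listed promoters, was at 58.8, 59.3 and 47.4 FPKM in siC and at 35.1, 31.9, 36.8 and 38.3 FPKM in siIGF2BP1. The groups of TPM4 did not overlap, and it missed the threshold narrowly (log2 change -0.63, interval from -0.88 to -0.38, limma adjusted p = 0.0114). It passed in 7 of 19 alternatives, among them voom on recovered reads (adjusted p = 0.0053), quantile normalization (0.00871) and a minimum mean of 5 FPKM (0.00893).

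The other tropomyosins gave no such difference. TPM3, at 59.9, 59.8 and 43.2 FPKM in siC and at 49.1, 45.2, 52.2 and 52.5 FPKM in siIGF2BP1, had a log2 change of -0.11 (interval from -0.42 to 0.19, and -0.27 without siC replicate 3). TPM2 was at 49.1, 46.1 and 17.7 FPKM in siC and at 42.6, 38.2, 48.5 and 47.9 FPKM in siIGF2BP1, with 1 low value in siC replicate 3 (log2 change 0.37, interval from -0.45 to 1.18, and -0.11 without that library). Within the family, TPM4 made up 33.9%, 34.6% and 41.7% of the summed FPKM in siC and 26.8%, 26.7%, 25.9% and 26.8% in siIGF2BP1. TPM2 made up 28.3%, 26.9% and 15.5% in siC and 32.5%, 32.0%, 34.2% and 33.6% in siIGF2BP1. The groups did not overlap for either share, so that the make-up of the tropomyosin mRNAs differed between the groups in each library, with less TPM4 and more TPM2 relative to the rest.

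Among the genes of non-muscle myosin II, the motor that pulls on actin filaments, 0 of 6 passed the threshold with limma. Of all genes tested, 2.28% were lower and 1.65% higher there, so 0 of so few genes lies near these shares. MYL9 and MYL12A were lower before adjustment (p under 0.05), or 33.3%, against 14.8% of all genes tested. Voom on recovered reads called MYL9 lower (log2 change -1.29, adjusted p = 0.00495), against 3.3% of all genes. MYL9, a regulatory light chain known as an SRF target, was at 3.25, 3.45 and 3.04 FPKM in siC and at 1.45, 0.870, 1.93 and 1.45 FPKM in siIGF2BP1. Its groups did not overlap, but the siIGF2BP1 values differed among themselves by more than those of siC (43.8% of siC, log2 change -1.18, SE 0.240, limma adjusted p = 0.0232), and its lowest read number was 46. MYL12A was at 52.3, 50.7 and 49.0 FPKM in siC and at 44.5, 40.8, 41.6 and 43.8 FPKM in siIGF2BP1 (log2 change -0.25, limma adjusted p = 0.0394). MYL12B, the light chain with the highest level, was at 151, 149 and 120 FPKM in siC and at 148, 136, 143 and 142 FPKM in siIGF2BP1 (log2 change 0.028, interval from -0.19 to 0.25). Within these 3 regulatory light chains MYL9 made up from 1.57% to 1.76% in siC and from 0.489% to 1.04% in siIGF2BP1.

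MYH9, the major heavy chain, had a siC replicate 3 value below all others. It was at 114, 109 and 40.6 FPKM in siC and at 48.4, 44.3, 53.9 and 50.0 FPKM in siIGF2BP1. With all libraries the log2 change was -0.70 (interval from -1.52 to 0.12, limma adjusted p = 0.262). Without siC replicate 3 it was -1.18 and passed the threshold. MYH10, the other heavy chain, had a log2 change of -0.13 (-0.22 without siC replicate 3), with 37.1 ± 4.25 FPKM in siC (SD, n = 3) against 33.8 ± 0.913 FPKM (SD, n = 4). MYL6, the essential light chain, averaged 93.1 ± 33.9 FPKM in siC (SD, n = 3) against 95.2 ± 5.95 FPKM (SD, n = 4) (log2 change 0.11, and -0.25 without siC replicate 3).

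Of the 7 genes of focal adhesions, which anchor filaments to integrins, and of LIM domain proteins, 5 were tested and 0 passed with limma or voom. Of all genes tested, 2.28% were lower and 1.65% higher with limma, and 3.3% and 2.38% with voom, so 0 of so few genes lies near these shares. Before adjustment 0 of 5 had p under 0.05, against 14.8% lower and 11% higher of all genes tested. TLN1 (talin) was at 86.4, 87.8 and 55.0 FPKM in siC and at 67.9, 61.8, 69.0 and 65.6 FPKM in siIGF2BP1 (log2 change -0.18, interval from -0.57 to 0.21). PDLIM5 was at 15.9, 17.9 and 31.7 FPKM in siC and at 15.3, 20.0, 14.0 and 14.1 FPKM in siIGF2BP1 (log2 change -0.41, interval from -0.99 to 0.18, and -0.11 without siC replicate 3), with its highest value in that library. TLN1 and VCL (vinculin) passed without siC replicate 3, with log2 changes of -0.40 and -0.29. ZYX (zyxin) and PDLIM7 had log2 changes of 0.078 and -0.13.

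FHL2 and FHL1, further LIM proteins, did not reach the minimum for the test. FHL2 was at 0.823, 0.980 and 1.23 FPKM in siC and at 0.575, 0.531, 0.672 and 0.651 FPKM in siIGF2BP1, from 56 to 208 reads per library. Each siIGF2BP1 library lay below each siC library, at 60.1% of siC. FHL1 had at most 2 reads in any library.

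The genes of actin monomer binding, filament turnover and capping gave 0 of 7 past the threshold with limma or voom. Of all genes tested, 2.28% were lower and 1.65% higher with limma, and 3.3% and 2.38% with voom, so 0 of so few genes lies near these shares. CAPZA1 was lower before adjustment (p under 0.05), or 14.3%, close to the 14.8% of all genes tested. CAPZA1, which encodes a subunit of the capping protein, was at 73.4, 75.0 and 76.6 FPKM in siC and at 63.6, 59.2, 61.8 and 62.7 FPKM in siIGF2BP1. The groups of CAPZA1 lay well apart relative to their spread, although the change was small (82.5% of siC, log2 change -0.28, interval from -0.41 to -0.15, limma adjusted p = 0.0210). TMSB10, a thymosin that sequesters monomers, was at 631, 602 and 318 FPKM in siC and at 548, 532, 584 and 632 FPKM in siIGF2BP1 (log2 change 0.21, interval from -0.35 to 0.78, and -0.11 without siC replicate 3). Its relative TMSB4X had a log2 change of -0.22 and made up from 5.61% to 10.4% of the summed FPKM of both genes in siC and from 5.06% to 5.85% in siIGF2BP1. Reads on the 6 pseudogenes named after TMSB4X came to between 6.26% and 10.0% of the reads on TMSB4X and these, which makes its value less certain. The log2 changes of the cofilins CFL1 and CFL2, the profilin PFN1 and the cofilin cofactor WDR1 were 0.0023, 0.14, -0.11 and 0.079.

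Of the ezrin, radixin and moesin genes, whose products link filaments to the plasma membrane, EZR and RDX were tested and 0 passed with limma or voom. Of all genes tested, 2.28% were lower and 1.65% higher with limma, and 3.3% and 2.38% with voom, so 0 of so few genes lies near these shares. RDX was lower before adjustment (p under 0.05), as were 14.8% of all genes tested. EZR was at 78.5, 74.7 and 55.7 FPKM in siC and at 58.3, 52.5, 62.4 and 61.4 FPKM in siIGF2BP1 (log2 change -0.24, interval from -0.54 to 0.073, and -0.39 without siC replicate 3). RDX was at 39.3, 39.3 and 36.5 FPKM in siC and at 32.7, 31.7, 33.7 and 32.6 FPKM in siIGF2BP1, with no overlap (log2 change -0.23, limma adjusted p = 0.0446). MSN had at most 9 reads in any library, so that EZR and RDX made up almost all of the family, with EZR at 64.2 ± 3.29% in siC (SD, n = 3) against 64.1 ± 1.30% (SD, n = 4).

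siC replicate 3 set the spread of many of these genes. Its value lay below those of siC replicates 1 and 2 for 32 of the 43 genes and above both for 9, against 47.9% and 41.9% of all genes tested. Its distance from the mean of the other siC libraries, on the log2 scale, ran with the GC content of the transcript (Spearman's rank correlation -0.496 over the 43 genes, given as a description across genes that share libraries, and -0.559 over 10653 protein-coding genes). The median distance was -0.51 for the 21 genes with a GC content above the median of 53.4% and -0.14 for the other 22. After each library's trend with GC content was removed, a setting chosen after seeing the data, the same 4 genes passed and 0 were higher. Without siC replicate 3, 14 of the 43 genes were lower and ACTG1 was higher, against 6.67% lower and 3.6% higher of all genes tested in that fit. The 14 were SRF, TAGLN, TAGLN2, TPM1, TPM4, FLNA, FLNC, VIL1, ACTN4, MYH9, TLN1, VCL, CAPZA1 and RDX, and the median log2 change of the group was -0.26.

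**Figure D3:**
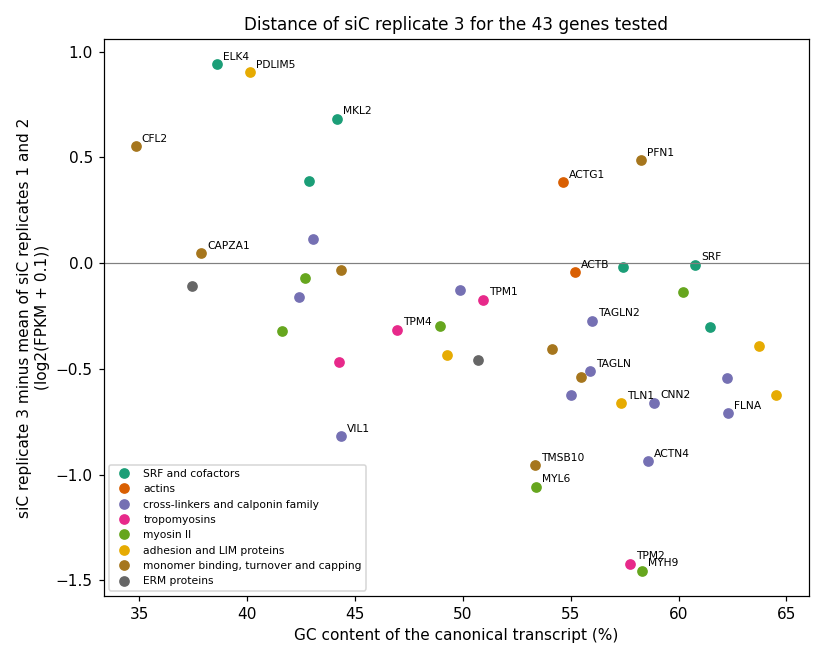
Distance of siC replicate 3 from the mean of siC replicates 1 and 2 (y axis, log2(FPKM + 0.1)) against the GC content of the canonical transcript (x axis, percent) for the 43 genes tested, coloured by role. SRF and ACTB lie near 0, MYH9 and TPM2 lowest at -1.45 and -1.42, and ELK4 and PDLIM5 highest at 0.94 and 0.90.

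**Figure D4:**
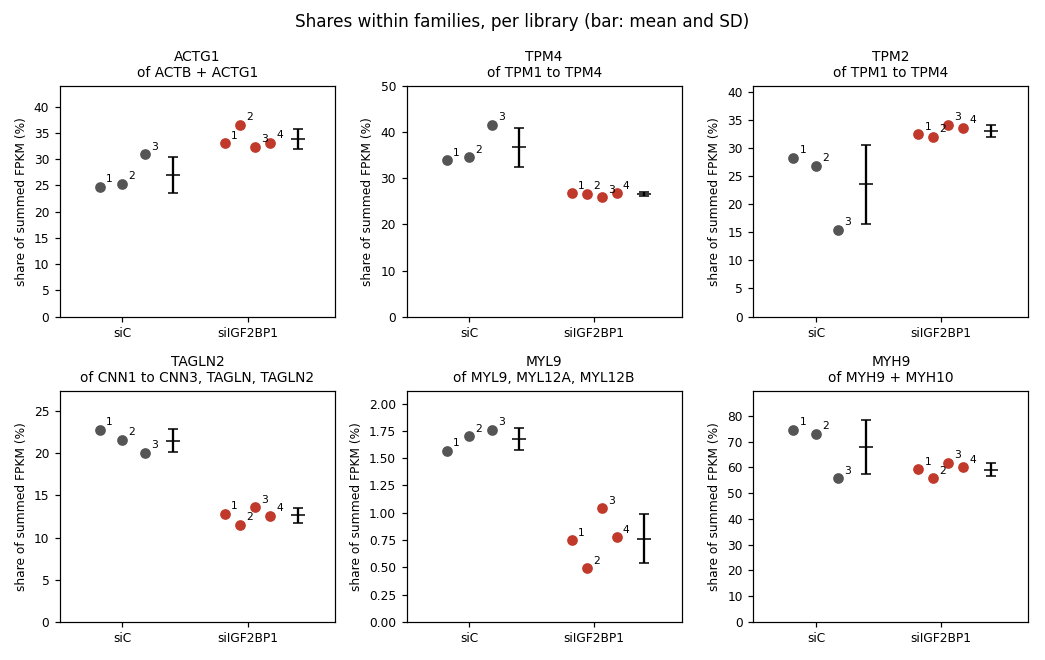
Share of 1 gene in the summed FPKM of its family (y axis, percent, from 0) in each siC (grey) and siIGF2BP1 (red) library, numbered by replicate, with a black bar for the mean and SD. The groups do not overlap for ACTG1, TPM4, TPM2, TAGLN2 and MYL9, and overlap for MYH9, which made up 55.8% of both heavy chains in siC replicate 3 and from 55.7% to 61.8% in siIGF2BP1.

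Other regulators of actin were examined for comparison, in lists of related function, and none of the genes in the 4 lists given here passed the threshold with limma, whereas voom on recovered reads called 1, WASF2. Of all genes tested, 3.93% passed the threshold with limma in either direction, and 14.8% were lower and 11% higher before adjustment (p under 0.05). Of 12 genes for Arp2/3 subunits and activators, which branch filaments, 1 was lower and 0 higher before adjustment, with a median log2 change of 0.024. Of 9 formins and Ena/VASP proteins, which elongate filaments, 7 were tested, 2 were lower and 1 higher before adjustment, with a median of -0.21. For 16 turnover, capping and bundling factors the numbers were 2 and 3, with a median of 0.048, and for 8 focal adhesion proteins 3 and 2, with a median of -0.26. The closest to the threshold, named after their values were seen, were WASF2 (WAVE2, an activator of the Arp2/3 complex) and ENAH (an Ena/VASP protein that elongates filaments). WASF2 was at 13.2, 14.1 and 15.0 FPKM in siC and at 10.3, 10.3, 10.8 and 11.1 FPKM in siIGF2BP1 (log2 change -0.41, limma adjusted p = 0.0107). ENAH was at 28.3, 29.2 and 28.6 FPKM in siC and at 35.6, 35.0, 37.2 and 35.5 FPKM in siIGF2BP1 (log2 change 0.32, limma adjusted p = 0.0109). The groups did not overlap for either gene, and the differences went in opposite directions. Without siC replicate 3, 8 genes of these lists were lower and 4 higher, against 6.67% and 3.6% of all genes tested in that fit.

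By level in siC, ACTB (697 ± 17.0 FPKM), TMSB10 (517 ± 173 FPKM), ACTG1 (258 ± 41.2 FPKM) and MYL12B (140 ± 17.2 FPKM) stood first (SD, n = 3 for each). Each of these 4 was farther from the next gene than the SD of either, whereas CNN3 (112 ± 6.16 FPKM), ACTN4, PFN1, MYL6 and MYH9 (87.9 ± 41.1 FPKM), which came next, did not differ beyond their spread. The genes that were lower at the threshold were of low or middle level in FPKM, from 2.29 ± 0.457 FPKM for TAGLN to 43.1 ± 4.62 FPKM for TAGLN2 in siC (SD, n = 3). This order rests on the gene lengths listed in the deposited table and could differ with other lengths.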

How the data were processed

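Total RNA-seq of 7 Huh-7 libraries was analysed. The authors depleted ribosomal RNA, prepared directional libraries, used Cutadapt (1.14) for clipping and HISAT2 (2.1.0) for alignment to GRCh38, counted reads per gene with featureCounts (1.5.3, Ensembl release 89) and used edgeR (3.18.1) with TMM normalization. The deposited table holds FPKM values per library, together with gene length and the authors' own fold changes, p-values and FDR, which were not used. The strand setting and the treatment of reads that match several places are not given in the sources used here, and exons of 13 of the 48 genes overlap the exons of a coding gene transcribed the opposite way. Groups and replicate numbers came from the sample titles.

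FPKM values times gene length came in whole-number steps (100% of low values within 0.02 reads), from which reads and depth were recovered. Genes whose mean reached 1 FPKM were tested with limma (3.58.1 in R 4.3.3, trended variance) on log2(FPKM + 0.1), a scale that understates changes of low genes. Tests were two-sided, p-values were adjusted after Benjamini and Hochberg, and 0.01 was the threshold. GC content and positions came from GENCODE release 44 (GRCh38), and promoters from RefSeq. The 48 genes and the comparison lists were chosen with earlier results of these data known. Values per library are given for SRF, its cofactors, genes past the threshold, and in each role the gene with the highest mean and that with the largest change. Any other gene given with its own values was chosen after its values were seen. Shares within families were also added after the values were seen. Alternatives changed the pseudocount, the filter, the threshold, the scaling, the variance trend, the library weights, the biotypes tested, the tool (voom on recovered reads), the replicate block and the libraries included, and the removal of the GC trend and the joint omission of siC replicate 3 and siIGF2BP1 replicate 2 were chosen after seeing the data. One of the comparison lists is not reported here.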

Additional observations from a re-analysis of the deposited data

Results flagged for a closer look

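Among the 4 siIGF2BP1 libraries, 3 genes had 1 value far from the others, and each time it was that of replicate 2. VIL1 had 26.7 FPKM there, with 30.0, 30.4 and 30.1 FPKM in replicates 1, 3 and 4, a gap to the nearest value of 0.867 of the range. LIMA1, which encodes a filament-stabilizing LIM protein, had 10.3 FPKM, with 11.5, 11.5 and 11.3 FPKM in the others, a gap of 0.881 of the range. MYH10 had 35.2 FPKM, with 33.4, 33.3 and 33.4 FPKM in the others, a gap of 0.975 of the range. These gaps exceed Dixon's critical value for 4 values at the 95% level. The distance of siIGF2BP1 replicate 2 from the others of its group also ran with GC content (Spearman's rank correlation -0.412 over the 43 genes of the group that were tested and -0.491 over 10653 protein-coding genes, as a description). Genes of low GC content thus tended to be higher there. The GC content was 44.4% for VIL1 and 42.4% for LIMA1, both lower in replicate 2, and 48.9% for MYH10, which was higher. The median of the tested genes was 53.4%. The part of this trend in the flags was not tested. Of 44 genes examined in this way 3 were flagged, and chance flags about 2.2. Groups of 3, such as siC, cannot be examined in this way.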

How the results depend on the processing

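SRF kept its direction under each of the 19 alternatives (log2 change from -1.08 to -0.96) and passed in all but the fit with the replicate number as a block, in which no gene passed. That fit gave -1.02 for SRF (limma adjusted p = 0.0954), -2.36 for IGF2BP1 (0.0909) and 0 lower genes in the group. Same-numbered libraries did not deviate together (correlations from -0.118 to -0.026), and the block leaves siIGF2BP1 replicate 4 without a partner. These are deviations from group means, which are not independent within a group. The correlations therefore cannot settle whether the numbers pair the libraries.

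The number of lower genes in the group, 4, became 9 at a threshold of 0.05, 7 with voom on recovered reads, 7 over protein-coding genes only and 19 with array weights, which set the weight of siC replicate 3 to 0.0986. With no filter or with median centring, only SRF, TAGLN and TAGLN2 were lower, and with no trend these and SVIL. Quantile normalization gave only SRF, TAGLN2 and TPM4. The same genes were lower with a mean of at least 5 FPKM, under which TAGLN and TPM1 were not tested. Leaving out 1 library gave 1 to 14 lower genes and 0 to 1 higher gene. The 14 came without siC replicate 3, and each other library gave 1 or 2. Array weights also gave 1 higher gene. Without siC replicate 3 and siIGF2BP1 replicate 2, chosen after seeing the data, 15 were lower and 1 higher. The other actin regulators called, 0, became 11 at 0.05, 2 with a mean of at least 5 FPKM, 2 with quantile normalization, 2 over protein-coding genes, 17 with array weights, 1 with voom, 0 to 12 with 1 library left out, 13 without both libraries and 6 with the GC trend removed.

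Over all genes, 338 were lower and 245 higher, against 1010 and 703 at a threshold of 0.05, 206 and 146 with no filter, 1722 and 1022 with array weights, 511 and 360 over protein-coding genes, 489 and 353 with voom, 511 and 471 with the GC trend removed, and 988 and 533 without siC replicate 3. Without any other single library, 53 to 109 were lower and 66 to 87 higher, and without both libraries 1043 and 563. The split was 260 and 279 with quantile normalization and 287 and 261 with median centring.

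Of the single genes, 669 comparisons with an alternative kept direction and call, 48 gained a call, 21 lost it and 49 changed sign. With array weights the log2 changes that changed sign were 0.029 (MKL2), -0.051 (TPM2), -0.19 (MYL6), -0.054 (MYL12B), -0.037 (ZYX), -0.16 (CFL1), 0.012 (PFN1), -0.027 (WDR1) and -0.077 (TMSB10). Without siC replicate 3 and siIGF2BP1 replicate 2 they were -0.039 (TPM2), -0.20 (MYL6), -0.058 (MYL12B), -0.024 (ZYX), -0.14 (CFL1), 0.0047 (PFN1), -0.013 (WDR1) and -0.070 (TMSB10). Quantile normalization gave 0.22 (ACTB), 0.052 (ACTN1) and 0.074 (CNN2), median centring 0.024 (ACTN1) and 0.014 (CNN2), removal of the GC trend 0.020 (ACTN1) and 0.014 (CNN2), and the replicate block -0.040 (CFL1). With 1 library left out, the log2 change crossed 0 for MKL2 (-0.30 to 0.099), ACTN1 (-0.21 to 0.12), ACTN4 (-0.46 to 0.033), CNN2 (-0.24 to 0.10), CNN3 (-0.039 to 0.041), TPM2 (-0.11 to 0.63), MYL6 (-0.25 to 0.30), MYL12B (-0.079 to 0.085), ZYX (-0.053 to 0.16), PDLIM7 (-0.34 to 0.011), CFL1 (-0.18 to 0.099), CFL2 (-0.0016 to 0.32), PFN1 (-0.21 to 0.048), WDR1 (-0.056 to 0.15) and TMSB10 (-0.11 to 0.39). The cause of these changes was not tested. TAGLN, MYL9 and FHL2 rest on few reads. For genes such as MYH9 the result depended on siC replicate 3, so whether their level differed between the groups was not settled.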

Other observations

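Of 14 genes that share exon bases with genes of the group on the other strand, 3 had siIGF2BP1 values above all siC values and 2, USP37 and AP3M1, below them. Over all genes tested, whose mean reached 1 FPKM, 11.9% lay above and 15.1% below. Several of the 14, such as FAS, MFSD4A and SNX32, lay far under that minimum, so the sets are unlike. The genes whose groups did not overlap were named after their values were seen. CAPN12, which shares 868 exon bases with ACTN4, averaged 0.853 ± 0.296 FPKM in siC (SD, n = 3) against 1.54 ± 0.0562 FPKM (SD, n = 4). ENO3, the muscle enolase gene, which shares 111 exon bases with PFN1, averaged 2.22 ± 0.666 FPKM in siC (SD, n = 3) against 4.12 ± 0.432 FPKM (SD, n = 4). NDEL1, which shares 72 exon bases with MYH10, averaged 6.32 ± 0.120 FPKM in siC (SD, n = 3) against 6.78 ± 0.272 FPKM (SD, n = 4). The log2 changes of ACTN4 and PFN1 themselves were -0.15 and -0.11.

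Reads on the 8 pseudogenes named after TPM3 came to between 3.98% and 5.55% of the reads on TPM3 and these. For TAGLN2, whose abundance fell, the 1 pseudogene of that name took from 0.743% to 1.52%.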
